A study of Mus musculus with 21 samples.

Results

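The genes described are 10 genes of the transforming growth factor beta (TGF-beta) and fibrosis response, chosen by symbol: the ligands Tgfb1, Tgfb2 and Tgfb3, the matricellular genes Ctgf, Postn, Sparc and Thbs1, the matrix gene Fn1, the protease inhibitor Timp1 and the crosslinking enzyme Lox. All 10 are among the 14732 genes of the deposited count table, and all 10 are among the 12333 genes that passed the filter on low counts and were tested. RNA came from the heart ventricle of male mice aged 2 months, either hemizygous for a knockout of Taz (KO/Y, here KO) or wild type at Taz (WT/Y littermates, here WT). Taz, an X-linked gene, encodes tafazzin, an enzyme of cardiolipin remodelling in mitochondria, and its loss in humans causes Barth syndrome, in which the heart muscle is affected. The animals had the genetic backgrounds named BL6J (C57/J in the series' design text), AJ-F1 and CAST-F1. There were 4 WT and 4 KO libraries in BL6J, 4 WT and 3 KO in AJ-F1, and 3 WT and 3 KO in CAST-F1, 21 in all. No group carried another labelled allele or treatment. The labels give neither the kind of knockout allele, nor the crosses behind the F1 names, nor which libraries are of different animals. The p-values therefore cover the spread among these libraries, part of which may be technical.

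TGF-beta ligands are secreted in a latent complex that is tied to the matrix through latent TGF-beta binding proteins. Once released, a ligand binds a pair of receptor kinases, which phosphorylate SMAD proteins, and these enter the nucleus and switch on genes for matrix, crosslinking enzymes and protease inhibitors. In the heart the pathway is known for turning resident fibroblasts into matrix-producing myofibroblasts after injury, and cardiomyocytes can also make TGF-beta ligands and CTGF under stress.

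Tgfb2 was the member with the clearest change, and its promoter is shown beside that of Tgfb1, a ligand of the same family that did not rise. Each run is the 250 bases before the RefSeq start on build GRCm38.p6, read on the gene's own strand from 5′ to 3′, with capitals marking the SMAD-binding letters CAGAC. Tgfb2 lies on the minus strand with its window at chr1:186705990-186706239, and Tgfb1 on the plus strand with its window at chr7:25686752-25687001.
Tgfb2: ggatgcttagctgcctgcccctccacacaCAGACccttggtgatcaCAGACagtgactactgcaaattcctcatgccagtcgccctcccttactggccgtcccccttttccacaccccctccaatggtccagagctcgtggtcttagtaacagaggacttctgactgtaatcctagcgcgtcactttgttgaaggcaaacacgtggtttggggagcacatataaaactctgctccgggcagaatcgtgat
Tgfb1: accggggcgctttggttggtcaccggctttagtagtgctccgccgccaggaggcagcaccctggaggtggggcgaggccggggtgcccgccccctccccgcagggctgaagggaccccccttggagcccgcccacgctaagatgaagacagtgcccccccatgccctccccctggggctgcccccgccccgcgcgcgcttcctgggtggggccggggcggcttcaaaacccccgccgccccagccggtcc
The Tgfb2 window holds CAGAC 2 times, at 221 to 217 and at 204 to 200 bases before the start. The Tgfb1 window holds none, on either strand. The GC content of the windows is 53.6% for Tgfb2 and 75.2% for Tgfb1. Of 32851 promoter windows of the same length, 42.2% hold CAGAC on either strand, so these letters are common. A RefSeq window was matched for 5 of the 10 members (Tgfb1, Tgfb2, Postn, Sparc and Timp1), and 3 of these 5 hold CAGAC in a window. Postn has 2 windows, of which the one at chr3:54359017-54359266 holds CAGAC and the one next to the annotated gene start, at chr3:54360857-54361106, does not. The Sparc window, at chr11:55420081-55420330, lies inside the annotated gene. The other letters searched on both strands were the cyclic AMP response element TGACGTCA (in 1.55% of all windows), the AP-1 site TGANTCA (6.75%), the CHOP and ATF4 composite element TGATGNAAN (3.44%) and the TEAD site GGAATG (12.6%). Of these, GGAATG was found once, in Timp1, and the others in none of the 5 members. A match is a stretch of letters and not a shown binding site.

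Total counts per library ran from 3848172 to 10738130. Taz itself was low in every KO library, at 5.84 ± 0.24 CPM (read counts scaled to each library's total with TMM factors; SD, n = 4) in BL6J KO, 2.49 ± 1.17 (n = 3) in AJ-F1 KO and 1.98 ± 0.81 (n = 3) in CAST-F1 KO, against group means of 43.8 to 54.8 CPM in WT. Ventricular cardiomyocyte markers were abundant in all groups but lower in KO, with group means of the sum of 11 markers from 88740 to 93170 CPM in WT and from 71750 to 73660 CPM in KO. Of the 11, 5 fell in BL6J, 4 in AJ-F1 and 6 in CAST-F1, 1 rose in BL6J and 1 in CAST-F1, and 8 fell in the mean over backgrounds by edgeR. The counts called, 6, 4 and 7, dropped to 3 in BL6J without WT 3, KO 3 or KO 4, to 2 in AJ-F1 without KO 3, and to 3 or 4 in CAST-F1 without WT 1, WT 2, KO 1, KO 2 or KO 3. Over all genes, 9.51% fell in BL6J, 15.7% in AJ-F1, 9.59% in CAST-F1 and 24.2% in the mean over backgrounds. The part of the fall of these markers in the members' CPM was not tested. AJ-F1 WT 3 stood apart within its group. It had the highest summed level of 12 fibroblast markers in the series (2568 CPM, against 1383 to 1803 in the other AJ-F1 WT libraries), and also the highest Tgfb1, Fn1, Sparc and Timp1. The change of each member in AJ-F1 is therefore also given without AJ-F1 WT 3. CAST-F1 WT 3 also stood high in its group, with a fibroblast sum of 1829 CPM against 879 and 1092 CPM. Without CAST-F1 WT 3, the log2 fold change in CAST-F1 was 0.008 for Sparc, -0.003 for Fn1, 0.53 for Postn and 3.09 for Ctgf. Beside these, the values with all libraries were -0.26, -0.24, 0.17 and 2.62. Tgfb2 and Ctgf stayed called in CAST-F1 without it.

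Between 2 and 4 of these genes changed with knockout in each background, and Tgfb2 was the one called in all 3. In BL6J, 3 of the 10 members rose (Tgfb2, Ctgf and Postn) and none fell. In AJ-F1, Tgfb2 rose and Tgfb1, Timp1 and Sparc fell. In CAST-F1, Tgfb2 and Ctgf rose and none fell. Calls are adjusted p-values under 0.05 from edgeR's quasi-likelihood test with Benjamini-Hochberg adjustment over all genes tested. Among all 12333 genes the share called in either direction was 22.3% in BL6J, 28.5% in AJ-F1 and 20.3% in CAST-F1, so the members' counts of 3, 4 and 2 of 10 lie near that background. The median log2 fold change of the 10 members was 0.28 in BL6J, -0.56 in AJ-F1 and -0.09 in CAST-F1, beside medians over all genes of 0.01, 0.01 and -0.02. Taken as the mean effect over the 3 backgrounds, 2 members rose (Tgfb2 and Ctgf) and 4 fell (Tgfb1, Fn1, Timp1 and Sparc), where 47.9% of all genes were called. By direction, the shares of all genes that were higher and lower were 12.8% and 9.51% in BL6J, 12.9% and 15.7% in AJ-F1, 10.7% and 9.59% in CAST-F1, and 23.7% and 24.2% for the mean effect.

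Separation of the libraries gives a like picture. Members whose KO libraries all lay above the WT libraries of their background numbered 3 in BL6J (Tgfb2, Tgfb3 and Ctgf), 1 in AJ-F1 and 2 in CAST-F1, where 15.5%, 14.1% and 24.0% of all genes did. Those whose KO libraries all lay below numbered 0, 3 and 2, where 12.9%, 14.9% and 22.6% of all genes did. With 10 members, these counts are not read as setting them apart.

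**Figure D1:**
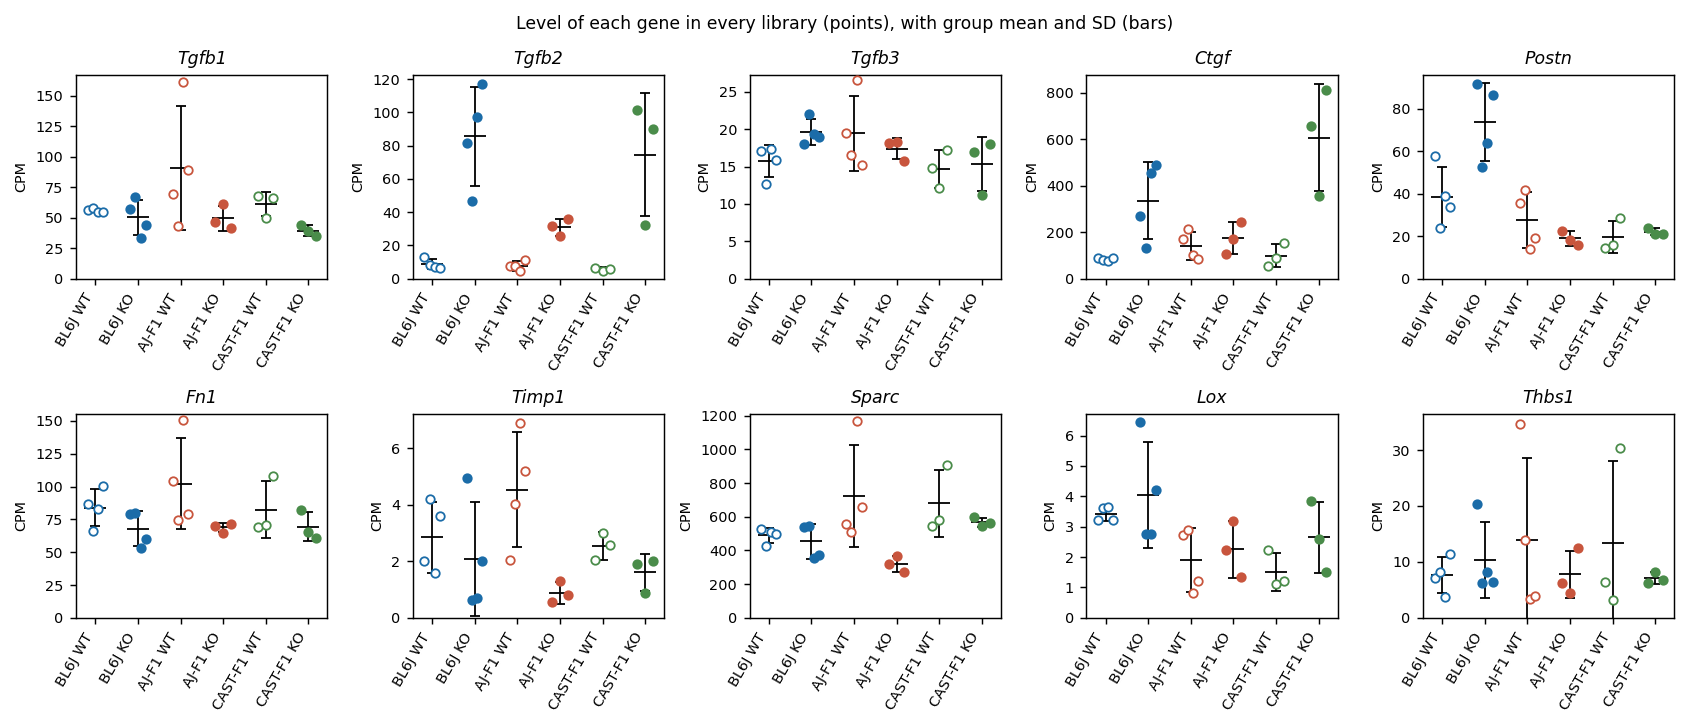
Each panel plots 1 gene's level in CPM (linear axis from 0) in every library, by background and genotype; open points are WT, filled points KO, and the black bars give the group mean and SD. Tgfb2 sits between 25.6 and 117 CPM in the KO libraries and between 4.26 and 12.9 CPM in the WT libraries.

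Tgfb2 encodes a TGF-beta ligand that is needed for heart and valve development in mice. It lies on chromosome 1 of GRCm38 (186622792 to 186705989, minus strand). In BL6J its level was 12.9, 8.21, 7.06 and 6.42 CPM in the WT libraries and 81.3, 46.7, 97.2 and 117 CPM in the KO libraries. In AJ-F1 it was 7.61, 7.51, 4.26 and 11.3 CPM in WT and 31.4, 25.6 and 35.6 CPM in KO. In CAST-F1 it was 6.47, 4.45 and 6.03 CPM in WT and 101, 32.2 and 89.8 CPM in KO. Every KO library stood above every WT library, across backgrounds as well as within them. The rise was 9.75-fold in BL6J (log2 fold change 3.29 ± 0.35 SE, edgeR adjusted p = 3.37e-07), 3.95-fold in AJ-F1 (1.98 ± 0.35, 2.93e-04) and 13.2-fold in CAST-F1 (3.72 ± 0.42, 1.08e-06). The call held without AJ-F1 WT 3, where the AJ-F1 log2 fold change was 1.79. The AJ-F1 KO libraries lay below all BL6J KO libraries, and of the CAST-F1 KO libraries only library 2 lay among those of AJ-F1 KO. The rise was smaller in AJ-F1 than in CAST-F1 by 1.74 ± 0.54 on the log2 scale and smaller than in BL6J by 1.30 ± 0.49, but neither difference passed the test (edgeR adjusted p = 0.254 and 0.371).

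The other ligands did not follow Tgfb2. Tgfb1, the ligand most studied in fibrosis, lies on chromosome 7 (25687002 to 25705077). It stood at 56.4, 57.7, 54.6 and 55.0 CPM in BL6J WT and at 56.8, 66.7, 33.3 and 43.7 CPM in BL6J KO, which overlap. In AJ-F1 it stood at 69.2, 42.7, 161 and 89.0 CPM in WT and at 46.2, 61.0 and 41.1 CPM in KO. In CAST-F1 it stood at 67.5, 49.9 and 66.0 CPM in WT and at 44.3, 38.9 and 34.7 CPM in KO, with no overlap. The log2 fold change was -0.16 ± 0.27 in BL6J (edgeR adjusted p = 0.732), -0.87 ± 0.30 in AJ-F1 (0.0330) and -0.63 ± 0.32 in CAST-F1 (0.179). The AJ-F1 call rests on AJ-F1 WT 3: without that library the log2 fold change was -0.45 (adjusted p = 0.152), and the call was also lost without AJ-F1 WT 4, KO 1 or KO 3 (0.0529, 0.0944 and 0.133). Over the 3 backgrounds together the fall was 1.47-fold (log2 fold change -0.56 ± 0.17, adjusted p = 0.0113).

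Tgfb3, the third ligand, lies on chromosome 12 (86056745 to 86079041) and did not pass the test in any background. Its group means lay between 14.7 and 19.6 CPM in all 6 groups. The log2 fold change was 0.32 ± 0.19 in BL6J, -0.16 ± 0.20 in AJ-F1 and 0.06 ± 0.22 in CAST-F1 (edgeR adjusted p from 0.248 to 0.878), and in AJ-F1 it was 0.013 (0.968) without AJ-F1 WT 3. In BL6J the 4 KO libraries, at 18.02 to 22.1 CPM, nevertheless all stood above the 4 WT libraries, at 12.6 to 17.3 CPM. Tgfb3 shares its locus with Ttll5 on the opposite strand, which had 107 to 225 reads per library against 52 to 162 for Tgfb3, and since the use of strand in counting is not given in the sources used here, reads of the pair may be mixed.

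Per kilobase of exon, the order of the ligands changed with genotype. In WT the level was highest for Tgfb1 (group means 11.1 to 17.95 CPM per kb), then Tgfb3 (4.34 to 5.75), then Tgfb2 (0.98 to 1.49). In KO, Tgfb2 reached 14.8 ± 5.14 CPM per kb in BL6J and 12.9 ± 6.39 in CAST-F1, beside 9.94 ± 2.90 and 7.80 ± 0.95 for Tgfb1. These means differ by less than the sum of their SDs. In AJ-F1 KO, Tgfb2 stood at 5.33 ± 0.87 CPM per kb, level with Tgfb3 (5.14 ± 0.42) and below Tgfb1 (9.81 ± 2.05).

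**Figure D2:**
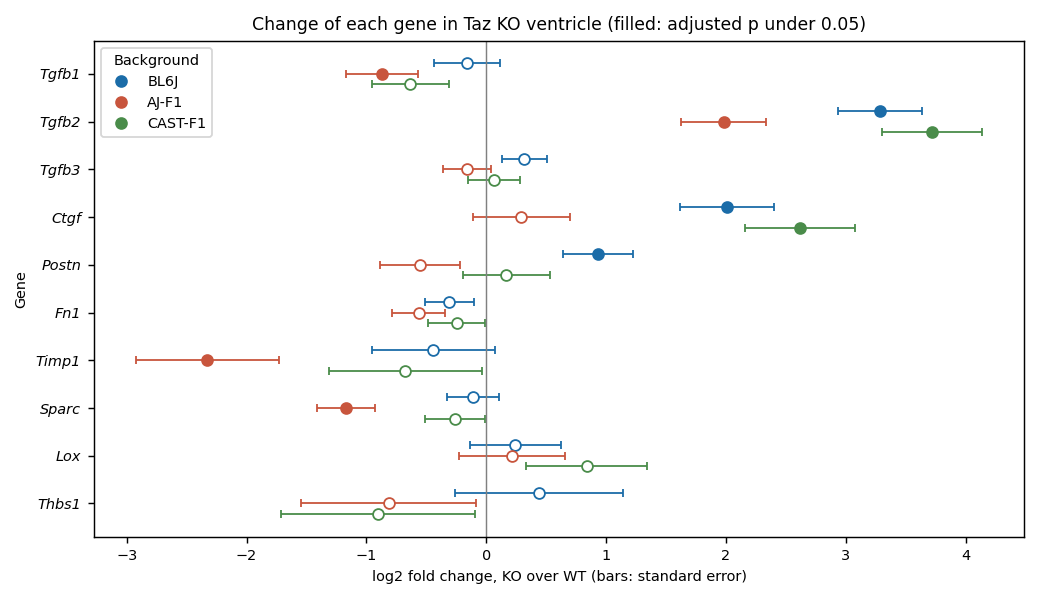
Log2 fold change of KO over WT (x axis) for each of the 10 genes in each background, with bars of 1 standard error; filled points have an edgeR adjusted p under 0.05. Tgfb2 is filled in all 3 backgrounds, Ctgf in BL6J and CAST-F1, and Sparc, Timp1 and Tgfb1 in AJ-F1 on the falling side.

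Ctgf, named Ccn2 in the newer nomenclature, encodes connective tissue growth factor, a matricellular protein induced by TGF-beta and by mechanical load, and lies on chromosome 10 (24595442 to 24598683). In BL6J it stood at 90.5, 78.9, 76.5 and 87.1 CPM in WT and at 269, 130, 455 and 487 CPM in KO. In AJ-F1 it stood at 171, 211, 102 and 82.1 CPM in WT and at 106, 169 and 245 CPM in KO. In CAST-F1 it stood at 55.7, 86.7 and 153 CPM in WT and at 657, 354 and 810 CPM in KO. The groups did not overlap in BL6J and CAST-F1, and in AJ-F1 they overlapped over most of their range. Ctgf rose 4.03-fold in BL6J (log2 fold change 2.01 ± 0.39, edgeR adjusted p = 6.23e-04) and 6.15-fold in CAST-F1 (2.62 ± 0.46, 2.79e-04). The log2 fold change in AJ-F1 was 0.29 ± 0.40 (adjusted p = 0.616), and 0.15 (0.857) without AJ-F1 WT 3.

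Summed levels of atrial and smooth muscle markers were higher in KO where Ctgf rose, while single smooth muscle markers moved in both directions. The summed level of 5 atrial cardiomyocyte markers was 135 to 533 CPM for WT and 1252 to 1992 CPM for KO in BL6J, and 41.9 to 78.6 CPM for WT and 1896 to 2002 CPM for KO in CAST-F1. In AJ-F1 the sums overlapped, at 88.8 to 531 CPM for WT and 148 to 535 CPM for KO. The list has 1 called gene in BL6J, 0 in AJ-F1 and 1 in CAST-F1 by edgeR, and that gene is Nppa, which encodes atrial natriuretic peptide and is also known as a stress gene of the ventricle (log2 fold changes 2.66 ± 0.50, 0.73 ± 0.50 and 5.37 ± 0.65). Over the 5 atrial markers the median log2 fold change was 2.11 in BL6J, 0.73 in AJ-F1 and 1.67 in CAST-F1. In the mean over backgrounds 3 of the 5 rose, where 23.7% of all genes did. Without AJ-F1 WT 2, 2 atrial markers were called in AJ-F1. The summed level of 10 smooth muscle and pericyte markers had group means of 5959 and 9206 CPM for WT and KO in BL6J, 6047 and 7098 CPM in CAST-F1, and 5896 and 6026 CPM in AJ-F1. Acta2, described with the target genes, is among these 10 markers, and the list's median log2 fold change was -0.15 in BL6J, -0.82 in AJ-F1 and -0.63 in CAST-F1, below 0 although the sums were higher in KO. Of 9 smooth muscle and pericyte markers tested, 2 rose and 1 fell in BL6J, and 1 rose and 5 fell in AJ-F1. In CAST-F1 1 rose and 3 fell, and in the mean over backgrounds 2 rose and 6 fell. Over all genes, 12.8% rose and 9.51% fell in BL6J, 12.9% and 15.7% in AJ-F1, and 10.7% and 9.59% in CAST-F1. For the mean these shares were 23.7% and 24.2%. The number called was 1 in BL6J without BL6J KO 4, and 2 in CAST-F1 without CAST-F1 WT 3, KO 2 or KO 3. The part of the atrial and smooth muscle markers in the change of Ctgf was not tested.

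The background difference of Ctgf came closest of all members to passing the test of the difference itself. The change in CAST-F1 exceeded that in AJ-F1 by 2.33 ± 0.61 on the log2 scale (edgeR adjusted p = 0.169), and the change in AJ-F1 lay below the mean of the other backgrounds by 2.02 ± 0.51 (adjusted p = 0.132), a comparison added after the values were seen. Neither passed in edgeR, where no member was called in any difference between backgrounds. The share of all genes called was 0.00811% for AJ-F1 minus BL6J, 0.0324% for CAST-F1 minus BL6J, 0.0892% for CAST-F1 minus AJ-F1 and 0.0% for AJ-F1 minus the mean of the others. By direction, 0.0243% were higher and 0.00811% lower for CAST-F1 minus BL6J, and 0.073% higher and 0.0162% lower for CAST-F1 minus AJ-F1. At an unadjusted p under 0.05 these comparisons held 5, 0, 3 and 5 of the 10 members. The share of all genes at that threshold was not computed, so these counts are not read as setting the members apart. Ctgf was called by limma-voom for CAST-F1 minus AJ-F1 (log2 difference 2.95, adjusted p = 0.0461) and by DESeq2 for AJ-F1 against the mean of the others (0.0429), and those tools called no other member in these differences. In edgeR the second of these passed without BL6J KO 2 (-2.17, adjusted p = 0.0439). The authors' deposited table, in which BL6J and CAST-F1 were pooled, gives Ctgf an interaction of background and genotype of 2.04 on the log2 scale with an adjusted p of 0.0510. It gives Tgfb2 an interaction of 1.45 with an adjusted p of 0.170.

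Among the KO libraries the order of Tgfb2 and Ctgf was the same in BL6J and partly the same in the other backgrounds. In BL6J KO both genes had the order library 4, 3, 1 and 2 from highest to lowest. In AJ-F1 KO library 3 was the highest for both genes, and in CAST-F1 KO library 2 was the lowest for both, while the other 2 libraries changed places in each of these groups. Over the 21 libraries the correlation of log2 CPM was 0.812, and 0.497 for the deviations from the group means. These are descriptions over libraries that share the group effect and the scaling.

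**Figure D3:**
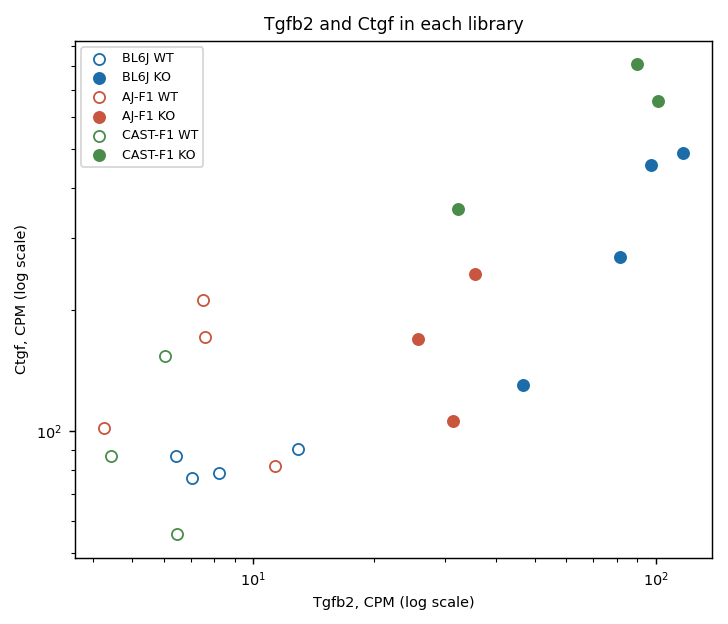
Tgfb2 (x axis) against Ctgf (y axis) in each of the 21 libraries, both in CPM on log axes; open points are WT and filled points KO. The KO libraries lie to the right, and those of BL6J and CAST-F1 reach 487 and 810 CPM of Ctgf while the AJ-F1 KO libraries stay at or below 245 CPM.

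Postn encodes periostin, a matricellular protein that in mice marks activated cardiac fibroblasts, and lies on chromosome 3 (54361109 to 54391037). In BL6J it stood at 57.5, 23.7, 38.9 and 33.7 CPM in WT and at 91.6, 52.4, 64.1 and 86.3 CPM in KO. In AJ-F1 it stood at 35.5, 41.6, 14.1 and 19.2 CPM in WT and at 22.6, 18.3 and 15.9 CPM in KO. In CAST-F1 it stood at 14.6, 15.9 and 28.4 CPM in WT and at 23.96, 21.2 and 21.05 CPM in KO. In BL6J the WT library with the highest value overlapped the lowest KO library. Postn rose 1.91-fold in BL6J (log2 fold change 0.93 ± 0.30, edgeR adjusted p = 0.0258), and the log2 fold changes in AJ-F1 and CAST-F1 were -0.55 ± 0.33 (0.226) and 0.17 ± 0.36 (0.798). Without AJ-F1 WT 3 the AJ-F1 value was -0.78 (0.0876). The BL6J call was lost without BL6J WT 2, 3 or 4 or without BL6J KO 1 or 4, with adjusted p-values from 0.0564 to 0.0934. The difference between AJ-F1 and BL6J was -1.48 ± 0.45 on the log2 scale and did not pass (edgeR adjusted p = 0.251).

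Sparc, which encodes the collagen-binding matricellular protein osteonectin, had the highest level per kilobase of the 10 genes in 5 of the 6 groups, and lies on chromosome 11 (55394500 to 55423183). In AJ-F1 it stood at 559, 507, 1167 and 660.2 CPM in WT and at 322, 369 and 271 CPM in KO, so that every KO library lay below every WT library. In BL6J it stood at 525, 428, 511 and 496 CPM in WT and at 536, 548, 357 and 373 CPM in KO. In CAST-F1 it stood at 547, 582 and 910.3 CPM in WT and at 598, 545 and 561 CPM in KO. Sparc fell 2.26-fold in AJ-F1 (log2 fold change -1.17 ± 0.24, edgeR adjusted p = 0.00119), and without AJ-F1 WT 3 the log2 fold change was -0.85 (0.00147). The log2 fold changes in BL6J and CAST-F1 were -0.11 ± 0.22 and -0.26 ± 0.25 (adjusted p = 0.770 and 0.518), and the difference between AJ-F1 and BL6J, -1.06 ± 0.32, did not pass (0.251).

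Fn1 encodes fibronectin, an early scaffold of the matrix, and lies on chromosome 1 (71585520 to 71653200). Its group means lay between 82.4 and 102 CPM in WT and between 67.9 and 69.5 CPM in KO. In AJ-F1 it stood at 104, 74.8, 150.5 and 79.4 CPM in WT and at 70.3, 65.0 and 71.7 CPM in KO, with no overlap. The log2 fold change was -0.31 ± 0.21 in BL6J, -0.56 ± 0.22 in AJ-F1 and -0.24 ± 0.24 in CAST-F1 (edgeR adjusted p = 0.318, 0.0618 and 0.519). In AJ-F1 it was -0.33 (0.209) without AJ-F1 WT 3, and DESeq2 called the fall (0.0454), as edgeR did without AJ-F1 WT 2 or WT 4 (0.0184 and 0.0413). The mean over the 3 backgrounds passed at -0.37 ± 0.13 (edgeR adjusted p = 0.0212) but not without CAST-F1 WT 3 (0.0677).

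Timp1 encodes a tissue inhibitor of metalloproteinases and is known to rise in fibrotic hearts. It lies on chromosome X (20870166 to 20874735) and had 3 to 52 reads per library. In AJ-F1 it stood at 2.04, 4.04, 6.89 and 5.21 CPM in WT and at 0.55, 1.32 and 0.81 CPM in KO, with no overlap. In BL6J it stood at 2.00, 4.20, 1.59 and 3.61 CPM in WT and at 4.97, 0.64, 0.69 and 2.02 CPM in KO, and in CAST-F1 the highest of the 3 KO libraries, 2.03 CPM, lay just below the lowest of the 3 WT libraries. Timp1 fell 5.02-fold in AJ-F1 (log2 fold change -2.33 ± 0.59, edgeR adjusted p = 0.00597), and the log2 fold change was -2.09 (0.0117) without AJ-F1 WT 3. In BL6J and CAST-F1 it was -0.44 ± 0.51 and -0.68 ± 0.64 (adjusted p = 0.595 and 0.503). Without BL6J KO 1, the log2 fold change in BL6J was -1.33 (0.0802). Syn1, which overlaps Timp1 on the opposite strand, had 0 to 19 reads per library, so that a share of these reads may be mixed.

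Lox and Thbs1 did not pass the test in any background. Lox encodes lysyl oxidase, which crosslinks collagen, lies on chromosome 18 (52516067 to 52529867) and had 5 to 35 reads per library. Its group means were 3.43 ± 0.24 CPM in BL6J WT and 4.04 ± 1.74 in BL6J KO, 1.91 ± 1.05 and 2.26 ± 0.93 in AJ-F1, and 1.51 ± 0.61 and 2.66 ± 1.17 in CAST-F1. The log2 fold change was 0.24 ± 0.38, 0.21 ± 0.44 and 0.84 ± 0.51 in this order (edgeR adjusted p = 0.704, 0.742 and 0.273), and in AJ-F1 it was -0.021 (0.980) without AJ-F1 WT 3. Thbs1 encodes thrombospondin 1, which can activate latent TGF-beta, and lies on chromosome 2 (118111876 to 118127133). It varied widely within groups, reaching 34.7 CPM in library AJ-F1 WT 1 and 30.3 CPM in library CAST-F1 WT 3 against 3.18 to 13.9 CPM in the other WT libraries of these backgrounds. Its log2 fold changes were 0.44, -0.81 and -0.90 (adjusted p = 0.713, 0.422 and 0.481), and -1.13 (0.324) in AJ-F1 without AJ-F1 WT 3. Its standard errors were 0.70 to 0.81 on the log2 scale, so changes of a 2-fold size were not detectable, and its sign in CAST-F1 turned from -0.90 to 0.57 without CAST-F1 WT 3.

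No member was called between WT groups by edgeR, where 3.26% of all genes were called between AJ-F1 and BL6J, 5.73% between CAST-F1 and BL6J and 5.26% between CAST-F1 and AJ-F1. By direction, these shares were 1.99% higher and 1.26% lower, 3.36% higher and 2.37% lower, and 2.26% higher and 3.0% lower. At an unadjusted p under 0.05 these comparisons held 3, 2 and 0 members. The share of all genes at that threshold was not computed, so these counts are not read as setting the members apart. Differences of moderate size are not excluded. In AJ-F1 WT against BL6J WT, Ctgf stood 1.70-fold, Tgfb1 1.62-fold and Sparc 1.48-fold higher (edgeR adjusted p = 0.237, 0.147 and 0.145). Lox stood 1.79-fold lower (edgeR adjusted p = 0.212). The median log2 difference of the members was 0.43, beside 0.03 over all genes. With 1 library left out at a time, the log2 difference went as low as 0.25 for Tgfb1 and 0.22 for Sparc. Lox was 2.27-fold lower in CAST-F1 WT than in BL6J WT (adjusted p = 0.149). Postn was lower in CAST-F1 WT than in BL6J WT by 0.97 ± 0.34 on the log2 scale (edgeR adjusted p = 0.0973), and limma-voom called this difference (0.00461). DESeq2 called none of the 10 members in any comparison of WT groups. Without AJ-F1 WT 2, edgeR called Tgfb1 (0.93, adjusted p = 0.0166) and Sparc (0.70, 0.0352) higher in AJ-F1 WT than in BL6J WT, and Tgfb1 lower in CAST-F1 WT than in AJ-F1 WT (-0.80, 0.0417).

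Fibroblast and endothelial markers fell in AJ-F1 beside Sparc, Timp1 and Tgfb1. In AJ-F1, 10 of 12 fibroblast markers fell and none rose, among them Dcn (log2 fold change -0.86 ± 0.21, edgeR adjusted p = 0.00493) and Pdgfra (-0.72 ± 0.26, 0.0402). The summed level of the 12 markers lay at 1383 to 2568 CPM for WT and 803 to 876 CPM for KO in that background. It was 1070 to 1482 and 904 to 1089 CPM in BL6J, and 879 to 1829 and 925 to 1153 CPM in CAST-F1, where the ranges overlapped. Of the 12 markers, 1 rose and 2 fell in BL6J, and 1 rose and none fell in CAST-F1, and the gene that rose in both was Ddr2, a collagen receptor. Over all genes, 12.8% rose and 9.51% fell in BL6J, 12.9% and 15.7% in AJ-F1, and 10.7% and 9.59% in CAST-F1. In the mean over backgrounds 24.2% of all genes fell. Endothelial markers were lower in KO in every background, with median log2 fold changes of -0.38 in BL6J, -1.03 in AJ-F1 and -0.57 in CAST-F1. Of the 12, 10 fell in AJ-F1, 2 in BL6J and none in CAST-F1, while 11 fell in the mean over backgrounds. With each background fitted alone, 4 were called in AJ-F1, 1 in BL6J and 5 in CAST-F1, and limma-voom called 6, 5 and 2. The AJ-F1 sums lay at 1733 to 3201 CPM for WT and 889 to 1568 CPM for KO. The AJ-F1 counts depend on single libraries: without AJ-F1 KO 2 or without KO 3, 5 fibroblast markers were called, and the endothelial count was 6 without AJ-F1 WT 3 or KO 1 and 4 without KO 3. In BL6J, 1 fibroblast marker was called without WT 2 or WT 4 and 0 without KO 3, and 3 were called in CAST-F1 without AJ-F1 WT 3 or CAST-F1 WT 3. The BL6J endothelial count was 0 or 1 without any 1 of WT 1, WT 2, WT 3, KO 1, KO 3 or KO 4, and the CAST-F1 count was 1 without BL6J KO 2 or KO 4. Other marker lists differed. Of 8 mesothelium and epicardium markers, 5 rose and none fell in AJ-F1, with a median log2 fold change of 1.21. In CAST-F1 3 rose and none fell (median 1.24), and in BL6J none rose and 1 fell (0.17). With AJ-F1 fitted alone 1 was called there, and 1 was called in CAST-F1 without CAST-F1 WT 1, KO 1 or KO 3. Of 3 nerve and glia markers tested, 2 fell in AJ-F1, 1 in BL6J and 1 in CAST-F1. In bulk tissue, fewer cells of a type and less RNA per cell cannot be told apart, and the part of all these markers in the members' changes was not tested.

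Set against the fibroblast sum, the members parted. Sparc per 1000 CPM of fibroblast markers was 401 ± 78.7 for WT and 376 ± 42.2 for KO in AJ-F1, which overlap. Tgfb1 was 49.0 ± 17.1 and 58.0 ± 10.2, also overlapping, and Timp1 was 2.62 ± 1.10 and 1.05 ± 0.44, with the highest KO library above the lowest WT library. Tgfb2 remained apart, at 4.86 ± 2.71 for WT and 36.5 ± 7.57 for KO. The KO libraries also lay above the WT libraries for Tgfb3, at 20.4 ± 0.71 against 10.99 ± 0.62, and for Fn1, at 81.3 ± 7.55 against 56.7 ± 2.37. The sum itself was lower in AJ-F1 KO (803 to 876 CPM) than in AJ-F1 WT (1383 to 2568 CPM). A gene of unchanged CPM therefore has a higher ratio in KO. In CPM, neither Tgfb3 nor Fn1 rose in AJ-F1 (log2 fold changes -0.16 and -0.56). The share of all genes whose ratios parted was not computed, so these ratios are not read as rises. In BL6J and CAST-F1 the same ratio of Fn1 overlapped, at 64.1 ± 13.7 for WT and 65.9 ± 9.48 for KO and at 67.4 ± 11.3 and 66.2 ± 4.87. Tgfb3 did not overlap in BL6J (8.50 to 16.2 and 17.2 to 21.5) and did in CAST-F1. Over the 21 libraries, deviations from the group means were correlated with those of the fibroblast sum. The values were 0.768 for Fn1, 0.686 for Sparc, 0.611 for Tgfb1, 0.519 for Tgfb3, 0.337 for Thbs1 and 0.210 for Timp1. They were -0.242 for Tgfb2, -0.107 for Lox, -0.0491 for Postn and 0.0385 for Ctgf. AJ-F1 WT 3, with the highest fibroblast sum, is included, and the correlations were not recomputed without it. Tgfb1 and Sparc (0.839) and Fn1 and Sparc (0.823) were the member pairs whose deviations correlated most.

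**Figure D4:**
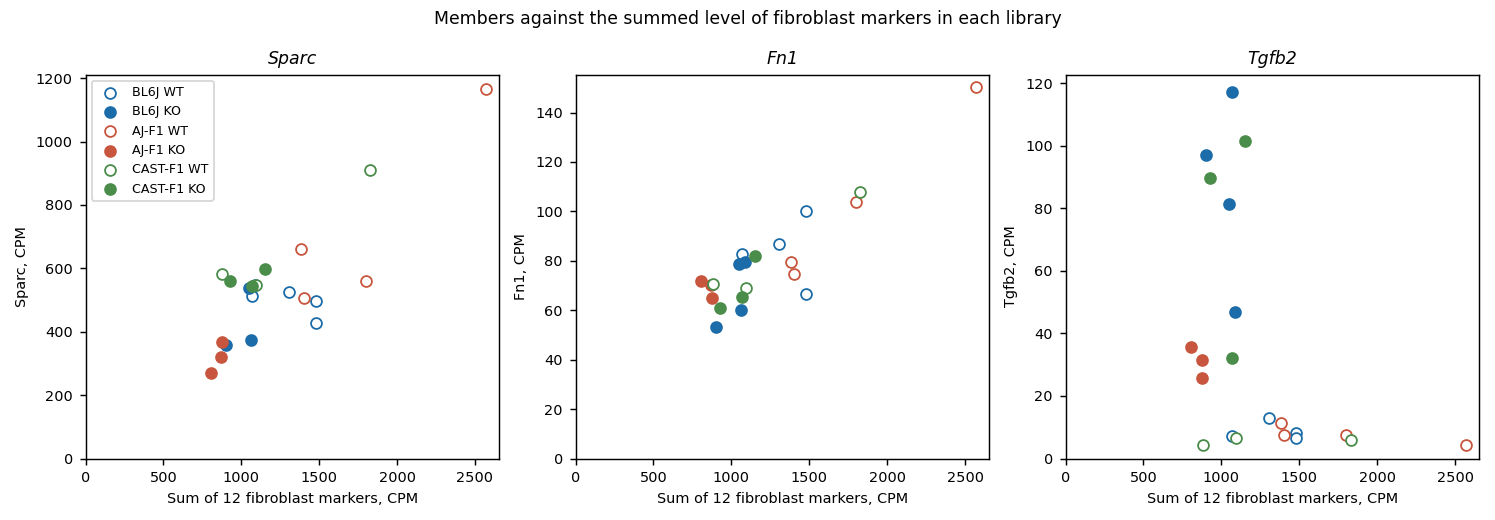
Sparc, Fn1 and Tgfb2 (y axes, CPM) against the summed CPM of 12 fibroblast markers (x axis) in each of the 21 libraries; open points are WT and filled points KO, and all axes start at 0. Sparc and Fn1 are high where the fibroblast sum is high, with AJ-F1 WT 3 at the far right, while Tgfb2 is high in the KO libraries at low sums.

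In the list of ligand, latency and activation genes, which includes 4 of the members, both directions occurred. Of 18 tested genes, 2 rose and 3 fell in BL6J, 1 rose and 5 fell in AJ-F1, and 1 rose and 3 fell in CAST-F1. Among all genes, 12.8%, 12.9% and 10.7% rose and 9.51%, 15.7% and 9.59% fell in these backgrounds. Ltbp1, a latent TGF-beta binding protein, fell in all 3 backgrounds, with log2 fold changes of -1.54 ± 0.22 in BL6J, -1.22 ± 0.23 in AJ-F1 and -1.34 ± 0.25 in CAST-F1 (edgeR adjusted p of at most 4.85e-04). Furin, a protease that cleaves the TGF-beta precursor, fell by 0.96, 0.77 and 0.86 on the log2 scale. Ltbp2, which binds fibrillin rather than TGF-beta, rose in BL6J (1.496 ± 0.397, 0.00824), where Itgb6, an integrin subunit that activates TGF-beta, fell as it did in CAST-F1 (-1.40 and -2.55). In AJ-F1, Ltbp3 (-0.71) and Ltbp4 (-1.16) fell. The median log2 fold change of the list was -0.16, -0.74 and -0.37 in this order, beside 0.01, 0.01 and -0.02 over all genes.

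Among 12 receptors, none rose in a single background and 2 fell in BL6J, 5 in AJ-F1 and 1 in CAST-F1, where 9.51%, 15.7% and 9.59% of all genes fell. In the mean over backgrounds 1 rose and 5 fell, where 23.7% of all genes rose and 24.2% fell. In BL6J, AJ-F1 and CAST-F1, 12.8%, 12.9% and 10.7% of all genes rose. Limma-voom called 5 receptors in BL6J and 5 in CAST-F1, and 1 was called in AJ-F1 fitted alone. Tgfbr3, the co-receptor betaglycan that presents TGF-beta2, fell in BL6J (-0.91 ± 0.17, edgeR adjusted p = 4.83e-04) and CAST-F1 (-0.94 ± 0.20, 0.00185), and was at -0.31 ± 0.18 in AJ-F1 (0.213). Tgfbr2 fell in AJ-F1 (-0.80 ± 0.22, 0.00806), where Eng and Acvrl1, co-receptor and receptor of endothelium, also fell (-1.19 and -1.49), while Tgfbr1 passed in no background. Smad3, a SMAD phosphorylated by the TGF-beta receptors, fell in BL6J (-0.81 ± 0.24, 0.0173) and CAST-F1 (-1.24 ± 0.29, 0.00370) and was at -0.64 ± 0.25 in AJ-F1 (0.0633), while Smad2 stood between 0.12 and 0.19. Of 9 SMADs and SMAD cofactors, called SMADs below, Smad4 and the cofactor Crebbp rose in AJ-F1 and Smad9 fell in CAST-F1. These small counts move by single libraries: the AJ-F1 receptors called were 3 without AJ-F1 KO 2 and 1 without KO 3, those in BL6J were 1 without any 1 of WT 2, WT 3, KO 1, KO 3, KO 4 or CAST-F1 KO 1 and 4 without AJ-F1 WT 3, and those in CAST-F1 were 3 without AJ-F1 WT 3 and 2 without AJ-F1 WT 2 or CAST-F1 WT 2. The SMAD counts ranged over 0 to 2 in BL6J, 0 to 3 in AJ-F1 and 1 to 3 in CAST-F1 with 1 library left out at a time. The median log2 fold changes were -0.32, -0.36 and -0.31 for receptors and -0.08, 0.13 and -0.16 for SMADs.

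Inhibitors of TGF-beta signalling moved in both directions. Of 16 inhibitors, 4 rose and 2 fell in BL6J, 3 rose and 5 fell in AJ-F1, and 4 rose and 2 fell in CAST-F1. The shares of all genes in this order were 12.8%, 12.9% and 10.7% higher and 9.51%, 15.7% and 9.59% lower. Fstl3, which binds activin, rose in all 3 backgrounds (log2 fold changes 1.85 ± 0.26, 1.29 ± 0.27 and 2.92 ± 0.33), as did the corepressor Tgif1 (1.01, 1.31 and 2.17) and Pmepa1, which limits SMAD activation (0.68, 0.55 and 0.76). Bambi, a pseudoreceptor, rose in BL6J (1.28 ± 0.20) and CAST-F1 (1.12 ± 0.23) and was at 0.40 ± 0.21 in AJ-F1 (edgeR adjusted p = 0.154). Smad7, the inhibitory SMAD, fell in AJ-F1 (-0.86 ± 0.31, 0.0412). The number called was 3 in BL6J without BL6J KO 1 and 5 in AJ-F1 without AJ-F1 KO 3. The list medians were 0.00, -0.04 and 0.11 on the log2 scale.

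**Figure D5:**
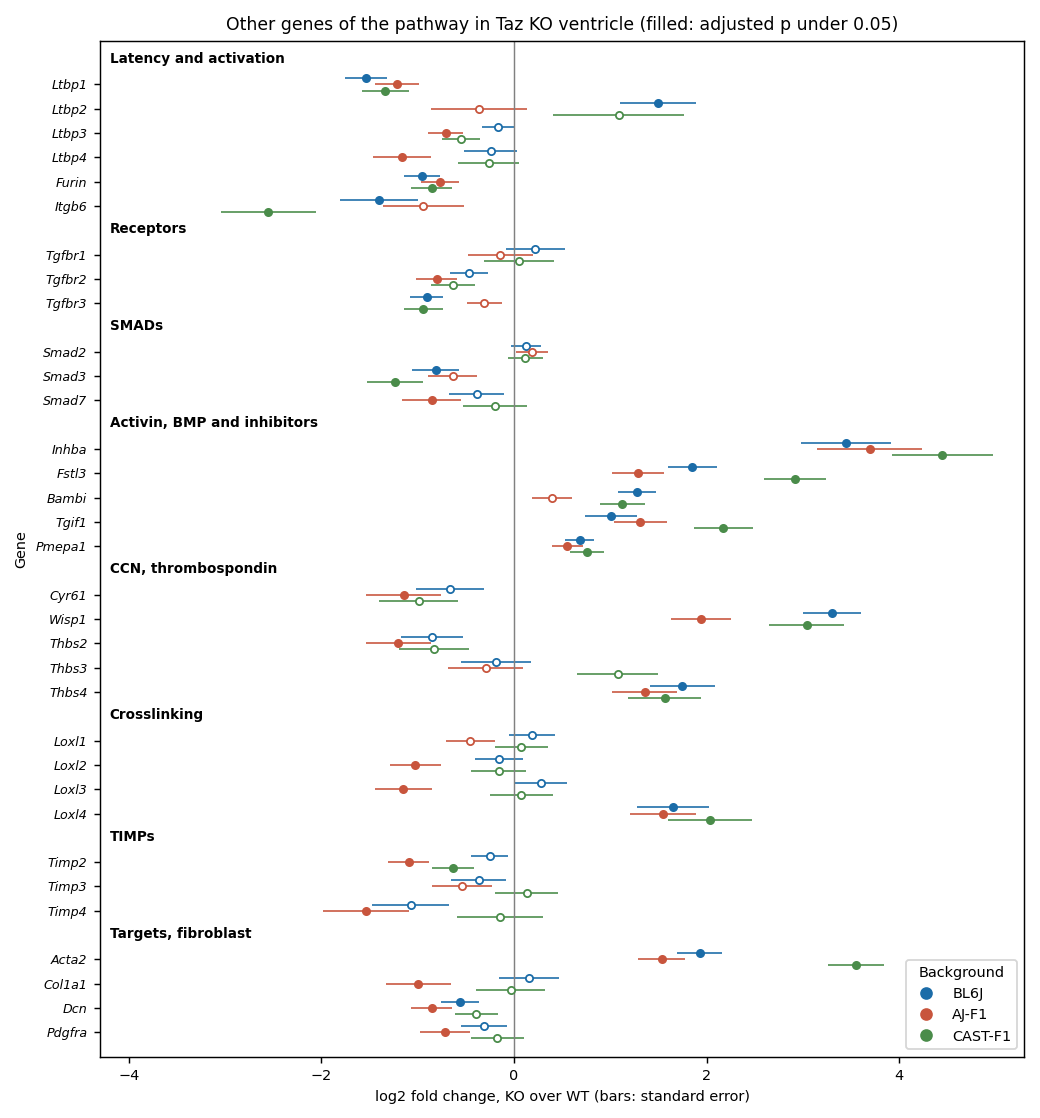
Log2 fold change of KO over WT (x axis) with bars of 1 standard error for other genes of the pathway, grouped by role, in the 3 backgrounds; filled points have an edgeR adjusted p under 0.05. Ltbp1 and Furin are filled on the left and Inhba, Fstl3, Tgif1, Pmepa1, Wisp1, Thbs4, Loxl4 and Acta2 on the right in every background.

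Among 23 genes listed as TGF-beta targets, which include 5 of the members, 8 rose and none fell in BL6J, 3 rose and 8 fell in AJ-F1, and 5 rose and 2 fell in CAST-F1. Over all genes, 12.8%, 12.9% and 10.7% rose and 9.51%, 15.7% and 9.59% fell in these backgrounds. Acta2, the smooth muscle actin of myofibroblasts and vessels, rose in all 3 backgrounds, from 415 ± 84.3 to 1578 ± 504 CPM in BL6J (log2 fold change 1.93 ± 0.23), from 274 ± 62.7 to 794 ± 141 CPM in AJ-F1 (1.54 ± 0.24), and from 68.0 ± 22.9 to 796 ± 177 CPM in CAST-F1 (3.55 ± 0.29). Tagln, another smooth muscle gene, went the other way, falling in AJ-F1 (-2.26 ± 0.35, edgeR adjusted p = 6.62e-05) and CAST-F1 (-1.21 ± 0.37, 0.0238). Cdkn1a, a cell cycle inhibitor, rose in all 3 (2.24, 2.65 and 1.47). The fibrillar collagen gene Col1a1 stood at 0.16 ± 0.31 in BL6J and -0.03 ± 0.36 in CAST-F1 (0.773 and 0.966) and fell in AJ-F1 (-0.99 ± 0.34, 0.0330). The AJ-F1 count of 11 was 7 without AJ-F1 KO 3, and the list medians were 0.24, -0.56 and 0.05.

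Relatives of the matricellular members moved in both directions. Of 20 CCN and other matricellular genes, 4 of them members, 4 rose and 3 fell in BL6J, 2 rose and 11 fell in AJ-F1, and 3 rose and 2 fell in CAST-F1, where 3 were called without any 1 of 8 libraries. Beside this, 12.8%, 12.9% and 10.7% of all genes rose and 9.51%, 15.7% and 9.59% fell. Wisp1, also called Ccn4, rose in all 3 backgrounds (3.30 ± 0.30, 1.94 ± 0.31 and 3.04 ± 0.39), whereas Cyr61, also called Ccn1, fell in AJ-F1 (-1.14 ± 0.39, edgeR adjusted p = 0.0327) and stood at -0.67 and -0.99 in BL6J and CAST-F1. Thbs4 rose in all 3 (1.75, 1.35 and 1.56), Thbs2 fell in AJ-F1 (-1.20 ± 0.34, 0.0106), and Thbs3 passed in none. Fbln1, a matrix glycoprotein, fell in all 3 (-1.14, -1.28 and -0.69). The list medians were 0.03, -0.88 and -0.37.

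Crosslinking and protease genes were called at shares near or below those of all genes in most comparisons. Of 14 crosslinking genes, 2 rose in BL6J and none fell, 1 rose and 3 fell in AJ-F1, and 2 rose in CAST-F1 and none fell. Loxl4, a lysyl oxidase homologue, rose in all 3 backgrounds (1.65 ± 0.37, 1.55 ± 0.34 and 2.04 ± 0.43), Loxl2 and Loxl3 fell in AJ-F1 (-1.02 and -1.15), and Loxl1 passed in none. Tgm2, a transglutaminase, rose in BL6J (0.81) and CAST-F1 (0.82). Of 19 TIMPs and proteases, 1 rose and 1 fell in BL6J, none rose and 7 fell in AJ-F1, and 1 rose and 2 fell in CAST-F1. The member Timp1 is in this list and among those that fell in AJ-F1. Over all genes 22.3%, 28.5% and 20.3% were called, with 12.8%, 12.9% and 10.7% higher and 9.51%, 15.7% and 9.59% lower. The 7 of 19 TIMPs and proteases that fell in AJ-F1 lay above the lower share of that background. With AJ-F1 fitted alone, 1 crosslinking and 3 protease genes were called there. Mmp15, a membrane metalloproteinase, fell in all 3 (-1.15, -1.36 and -1.38), Timp2 fell in AJ-F1 and CAST-F1 (-1.10 and -0.63), Timp4 fell in AJ-F1 (-1.54), and Timp3 passed in none. The crosslinking count was 1 in BL6J without BL6J KO 4 and 4 without AJ-F1 WT 3, 7 in AJ-F1 without AJ-F1 WT 2, and 1 in CAST-F1 without any 1 of CAST-F1 WT 1, WT 3, KO 1 or KO 3. The protease count was 4 in BL6J without BL6J KO 1 and 4 in AJ-F1 without AJ-F1 KO 1 or KO 2. The medians were 0.02, -0.25 and 0.08 for crosslinking and -0.25, -0.54 and -0.35 for TIMPs and proteases.

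Several secreted factors rose with Tgfb2 in every background. Inhba, which encodes the activin A subunit of the same ligand superfamily, rose from 0.66 ± 0.71 to 7.41 ± 3.16 CPM in BL6J, from 0.32 ± 0.15 to 4.08 ± 1.31 CPM in AJ-F1 and from 0.63 ± 0.20 to 14.2 ± 4.45 CPM in CAST-F1 (log2 fold changes 3.45 ± 0.47, 3.69 ± 0.55 and 4.45 ± 0.52). Gdf15, a stress-induced member of the superfamily, rose by 5.45, 5.65 and 6.73 on the log2 scale, and Lgals3, which encodes galectin 3, by 4.50, 2.66 and 3.53. Of the 22 cytokines and neurohormonal genes tested, 4 rose and 1 fell in BL6J, 5 rose and 8 fell in AJ-F1, and 4 rose and 1 fell in CAST-F1. Agt, which encodes angiotensinogen, fell in AJ-F1 (-2.95 ± 0.48, edgeR adjusted p = 9.52e-05) and CAST-F1 (-2.61 ± 0.47, 3.73e-04). It was at -0.96 ± 0.37 in BL6J (0.0685). Ace fell in AJ-F1 (-1.585 ± 0.323, edgeR adjusted p = 0.00101) and stood at 0.13 and 0.20 in BL6J and CAST-F1. Of 16 activated fibroblast genes, 5 rose and none fell in BL6J, 2 rose and 2 fell in AJ-F1, and 3 rose and 1 fell in CAST-F1, where 2 were called without CAST-F1 KO 3. For both lists, the shares of all genes were 12.8%, 12.9% and 10.7% higher and 9.51%, 15.7% and 9.59% lower. Cilp, a matrix gene of activated fibroblasts, rose in BL6J (1.80 ± 0.38, edgeR adjusted p = 0.00140) and CAST-F1 (1.70 ± 0.51, 0.0194) and was at -1.20 ± 0.51 in AJ-F1 (0.0804). The medians were -0.15, -0.80 and -0.48 for the cytokine list and 0.48, -0.55 and 0.06 for the activated fibroblast list.

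The tested genes whose log2 CPM was most like each member over the 21 libraries are given as a description, with Pearson's correlation, since libraries of a group share its effect. For Tgfb2 they were Fhl1 (0.958), Adamts20 (0.956) and Mei4 (0.955), and for Ctgf Poglut1 (0.882), Pwp1 (0.879) and Ddr2 (0.874). For Postn they were Ltbp2 (0.836), Asap2 (0.831) and Cilp (0.825). For Sparc they were Mmrn2 (0.940), Pea15a (0.939) and Tie1 (0.932), for Fn1 Col6a1 (0.907), Arhgap23 (0.901) and Hspg2 (0.890), and for Tgfb1 Cenpb (0.944), Zfpm1 (0.927) and Caskin2 (0.924). The highest values were lower for Timp1 (Dnajb5, 0.836), Tgfb3 (Npcd, 0.814), Lox (Zfp708, 0.801) and Thbs1 (Egr2, 0.763).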

How the data were processed

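The authors deposited raw read counts per gene and library, and these whole-number counts were used for every test. Per the submitters' processing notes, reads were handled with HISAT and featureCounts on GRCm38.p6, and DESeq2 is also named; versions, settings and the use of strand are not given in the sources used here. Per the labels' protocols, polyA RNA was selected for stranded libraries. Per the file headers, the authors also deposited log2 fold changes and adjusted p-values, quoted where named, and 42 columns of transformed values per sample were not used. Recomputing showed that the authors' pooled comparison holds BL6J and CAST-F1.

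Samples were grouped by labelled background and genotype. Genes were filtered with filterByExpr (12333 of 14732 kept) and tested with edgeR's quasi-likelihood F test (edgeR 4.0.16, limma 3.58.1, R 4.3.3), with 6 group means, TMM normalisation (factors 0.860 to 1.07) and Benjamini-Hochberg adjustment at 0.05. SE is the log2 fold change divided by the root of F. Correlations used log2 CPM with a prior count of 2. The script was tested on simulated data. Total counts of 3848172 to 10738130 per library limit genes with few reads. Coordinates and exon lengths are from GENCODE M21 on GRCm38, promoter windows from RefSeq.

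The members and lists were chosen with earlier results of these data known. All members are named, with up to 3 genes of smallest adjusted p under 0.05 per background from each list that is not a marker list. Fixed family genes and the genes most like each member are also named. Not all of these are reported. A few other genes, among them Agt and Ace, were named outside this rule. Results were recomputed with each library left out, with a replicate block, with separate fits per background, with limma-voom using sample weights and with DESeq2 1.42.0 (Wald test). Scaling was changed to upper-quartile factors or to size factors from DESeq2, and the filter was dropped or set to 1 CPM in 3 samples.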

Additional observations from a re-analysis of the deposited data

Results flagged for a closer look

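Thbs1 in BL6J KO 1 stood at 20.4 CPM, far from the other 3 libraries of its group, at 6.16, 8.24 and 6.43 CPM. It was the only 1 of 30 tested groups of 4 libraries in which the extreme value lay past Dixon's 95% critical value, and chance flags about 1 in 20 such groups. Without this library the log2 fold change of Thbs1 in BL6J was -0.13 in place of 0.44, and neither value passed the test.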

How the results depend on the processing

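Calls for Tgfb2 in all 3 backgrounds, for Ctgf in BL6J and CAST-F1, and for Sparc and Timp1 in AJ-F1 held in all 8 settings other than left-out libraries and with each of the 21 libraries left out in turn. The log2 fold change of Tgfb2 ranged from 3.23 to 3.37 in BL6J, 1.91 to 2.11 in AJ-F1 and 3.54 to 3.74 in CAST-F1 over those settings. Tgfb1 in AJ-F1 lost its call with limma-voom (-0.43, adjusted p = 0.184) and when AJ-F1 was fitted alone (0.188), and was called in CAST-F1 with limma-voom (-0.66, 0.00540) and with CAST-F1 fitted alone (-0.63, 0.00331). Replicate numbers gave no sign of pairing: of 10 same-numbered pairs, none had a correlation of deviations over 0.1 (-0.229 to 0.0815). This check cannot exclude pairing, since paired samples need not share deviations over all genes. With a replicate block, 3, 3 and 2 members were called in BL6J, AJ-F1 and CAST-F1, and Tgfb1 in AJ-F1 was not called (-0.88, 0.0615).

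No member was called in edgeR for differences between backgrounds, but limma-voom called 1 for CAST-F1 minus AJ-F1, and DESeq2 called 1 for AJ-F1 minus the mean of the others, as did edgeR without BL6J KO 2 (range over left-out libraries 0 to 1). Limma-voom called 1 between CAST-F1 WT and BL6J WT. With libraries left out, 0 to 2 members were called between AJ-F1 WT and BL6J WT (2 without AJ-F1 WT 2), and 0 to 1 between CAST-F1 WT and AJ-F1 WT. Fits to each background alone cannot give the mean effect or AJ-F1 minus the mean of the others. In AJ-F1 fitted alone, with fewer samples, list counts fell from 6 to 2 for ligands, 5 to 1 for receptors, 2 to 0 for SMADs, 8 to 4 for inhibitors, 11 to 6 for targets, 4 to 1 for crosslinking, 7 to 3 for TIMPs and proteases, 10 to 5 for fibroblast and 10 to 4 for endothelial markers. In CAST-F1 fitted alone they were higher for ligands (4 to 7), receptors (1 to 5), matricellular genes (5 to 8), proteases (3 to 5) and endothelial markers (0 to 5).

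Signs turned without any call. With limma-voom the value was -0.054 for Lox in AJ-F1, 0.080 for Timp1 and 0.11 for Sparc in CAST-F1 minus BL6J, -0.23 for Tgfb1 and 1.22 for Thbs1 in CAST-F1 minus AJ-F1, 0.052 for Tgfb1 in AJ-F1 minus the mean of the others, -0.14 for Ctgf between CAST-F1 WT and BL6J WT, and 0.077 for Sparc between CAST-F1 WT and AJ-F1 WT. With the replicate block it was 0.011 for Lox in AJ-F1 minus BL6J and 0.058 for Thbs1 in CAST-F1 minus AJ-F1. The cause was not tested.

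With 1 library left out at a time, signs also turned without a call. The range for KO against WT, BL6J was -0.073 to 0.40 for Lox, -0.13 to 0.69 for Thbs1. The range for KO against WT, AJ-F1 was -0.26 to 0.013 for Tgfb3, -0.065 to 0.55 for Ctgf, -0.12 to 0.49 for Lox, -1.38 to 0.17 for Thbs1. The range for KO against WT, CAST-F1 was -0.059 to 0.25 for Tgfb3, -0.0049 to 0.53 for Postn, -0.40 to 0.0084 for Sparc, -1.35 to 0.57 for Thbs1. The range for the mean KO effect over 3 backgrounds was -0.62 to 0.064 for Thbs1. The range for the KO effect of AJ-F1 minus BL6J was -0.36 to 0.29 for Lox. The range for the KO effect of CAST-F1 minus BL6J was -0.073 to 0.30 for Fn1, -0.53 to 0.65 for Timp1, -0.27 to 0.12 for Sparc, -1.78 to 0.13 for Thbs1. The range for the KO effect of CAST-F1 minus AJ-F1 was -0.17 to 0.47 for Tgfb1, -1.08 to 1.39 for Thbs1. The range for the KO effect of AJ-F1 minus mean of BL6J and CAST-F1 was -1.32 to 0.41 for Thbs1. The range for WT AJ-F1 against WT BL6J was -0.43 to 0.11 for Tgfb2, -0.12 to 1.19 for Thbs1. The range for WT CAST-F1 against WT BL6J was -0.23 to 0.0054 for Tgfb3, -0.22 to 0.51 for Ctgf, -0.27 to 0.069 for Fn1, -0.34 to 0.090 for Timp1, -0.67 to 1.25 for Thbs1. The range for WT CAST-F1 against WT AJ-F1 was -0.36 to 0.23 for Sparc, -1.54 to 0.92 for Thbs1.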
